A study of Mus musculus with 9 samples.

Results

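The abundance of 8 mRNAs that encode caspases and components of the inflammasome (Casp1, Casp4, Casp8, Casp9, Nlrp3, Pycard, Gsdmd and Aim2) was compared in macrophages that carried a GFP, a GFP-TTP or a GFP-TTP-AA transgene. The members were chosen by gene symbol, and all 8 were found among the 25494 genes of the deposited table. All 8 were also listed in each of the 3 deposited comparison tables and had a mean of at least 10 over the 9 libraries, the limit on low values used here, which 13028 genes passed. The largest difference among the 8 was that of Pycard, the adaptor of the inflammasome, which was lowest in TTP and highest in TTP-AA. Casp4 and Casp1, neighbours on chromosome 9, were higher in TTP-AA than in both other groups, whereas Nlrp3 and Aim2, the sensors, were at similar fitted levels in the 3 groups.

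Inflammasomes are protein complexes that macrophages assemble in the cytosol when a sensor detects infection or damage. A sensor such as NLRP3 or AIM2 recruits the adaptor ASC, the product of Pycard, and ASC gathers and activates caspase-1. Caspase-1 matures interleukin-1β and interleukin-18 and cuts gasdermin D, whose fragment opens pores in the plasma membrane, a form of death called pyroptosis. Mouse caspase-4, often called caspase-11, binds lipopolysaccharide (LPS) in the cytosol and cuts gasdermin D without an inflammasome sensor. Caspase-8 starts apoptosis from death receptors and holds necroptosis in check, and caspase-9 starts apoptosis from mitochondria. Tristetraprolin (TTP, gene Zfp36) binds AU-rich elements in the 3′UTR of inflammatory mRNAs and promotes their decay, and the kinase MK2 inactivates it by phosphorylation.

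The cells were bone marrow-derived macrophages from TTP-deficient mice, immortalized with the oncogenes hcmyc and hRasG12V and positive for CD11b and F4/80, and all 3 groups lack endogenous TTP. They were transduced with a retroviral tet-inducible vector that encodes GFP alone (the GFP group), GFP fused to TTP (TTP) or GFP fused to a mutant TTP (TTP-AA) in which S52A and S178A remove the MK2 sites. The transgenes hold the coding sequence alone, and the number of clones behind each transduced line is not given in the sources used here, so an effect of the transgene and a difference between lines cannot be told apart. Every library came from cells given doxycycline at 1 µg/ml for 6 h and LPS at 1 µg/ml for 1 h, and no untreated cells were analysed here. Total RNA depleted of ribosomal RNA was sequenced in 3 libraries per group, described by the submitters as biological replicates.

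The deposited library values are fitted means of the authors' model and not measured counts. The centred log2 table had rank 4, where 9 independent libraries allow a rank of 8, none of the values was 0, and log2 differences between same-numbered libraries were equal for all 3 replicate numbers to within 2.6e-14. The spread between libraries of a group therefore shows the replicate-number term alone, which is the same in every group. It is no experimental error, so no standard error, interval or p-value is given, and differences are described by their size and by the share of all genes that differed as much. Whether groups overlap below depends on a difference and this term alone, and is no agreement between replicates. The share of all genes without overlap was not counted. Library totals of fitted values ran from 21482954 (TTP replicate 1) to 102613526 (TTP-AA replicate 3), and the values below were divided by a library factor and are called scaled fitted counts. Fitted differences were small in weakly expressed genes, with a median size of 0.029 to 0.040 on the log2 scale under a mean of 10, against 0.156 to 0.239 at a mean from 10 to 500 and 0.114 to 0.169 at a mean of at least 500, where all 8 members lay. In bulk RNA, fewer cells of a type and less RNA per cell cannot be told apart.

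Zfp36, the disrupted gene (chromosome 7, 28376784 to 28380253, GRCm38), had scaled fitted counts from 889.8 to 1744 in GFP, from 912.5 to 1786 in TTP and from 1444 to 2830 in TTP-AA. Its log2 difference was 0.03 for TTP against GFP and 0.70 for TTP-AA against GFP, so its level did not separate TTP from GFP. The lowest TTP-AA library lay below the highest GFP and TTP libraries, and the level was taken as no check of the labels. An antisense gene overlaps its exon. All 8 macrophage markers had a mean of at least 10, while the B cell, epithelial and fibroblast markers in the table were under 10. Of the T cell and neutrophil markers in the table, Lck and S100a8 alone passed that limit, with means of 79.0 and 174.

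The 7-base motif TATTTAT, an AU-rich element of the kind TTP binds, was searched for on the transcript strand in the 3′UTR of the transcript with the longest coding sequence. The sites are shown as places that hold this motif, and whether TTP acts on these mRNAs through them was not tested. Casp4, Casp9 and Pycard had 1 copy each and Nlrp3 had 2, whereas Casp1, Gsdmd and Aim2 had none. Another Casp4 transcript has a longer 3′UTR of 1496 bases that held no copy. Casp8 has no annotated 3′UTR in that transcript, and its longest annotated 3′UTR, of 749 bases, held no copy. For each of the 4 genes that held the motif, its first site follows with 11 bases on each side and the motif in capitals. Sites are written 5′ to 3′ on the strand of the gene, all in GRCm38.
Casp4, chr9:5336741-5336769, plus strand: gaaatttgtttTATTTATttgtgtacata
Casp9, chr4:141814299-141814327, plus strand: cttgagaacatTATTTATtcttcaacaat
Nlrp3, chr11:59566839-59566867, plus strand: acccatttttgTATTTATtgtatgtttgt
Pycard, chr7:127991532-127991560, minus strand: cttccaagtgtTATTTATggtcctaccta

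The Casp4 site lay 25 bases before the end of a 3′UTR of 254 bases, and the Nlrp3 site shown lay 100 bases before the end of one of 693. Those of Pycard and Casp9 lay inside much longer 3′UTRs of 3004 and 2289 bases. The motif was held by 7.5% of genes with a 3′UTR of like length (within 20%) for Casp4, 19.9% for Nlrp3, 41.0% for Casp9 and 52.1% for Pycard, against 27.4% of all 11369 genes with a 3′UTR. A match is a description of the letters and does not by itself show binding by TTP, which the libraries used here do not measure. The core GAAANNGAA of the interferon-response element was searched for on both strands of the RefSeq promoters (250 bases before to 50 after the start, GRCm38.p6), since Casp4 and Aim2 are known as interferon-inducible. None of the promoters of the 7 members in that table held it, while 8.56% of the 32851 promoters did.

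The sensors, which stand first in the pathway, had the smallest ranges over the 3 groups among the 8 members, 0.17 for Nlrp3 and 0.08 for Aim2 on the log2 scale. Nlrp3 (ENSMUSG00000032691, chromosome 11, 59541568 to 59566956, protein coding) encodes the sensor of membrane damage and ion flux, whose mRNA is induced by LPS. Its scaled fitted counts were 6531, 7899 and 10850 in GFP replicates 1 to 3, 6236, 7488 and 10376 in TTP and 7004, 8440 and 11636 in TTP-AA. The ranges of the 3 groups overlapped, and replicate 3 was the highest library in each. The log2 difference was -0.07 for TTP against GFP, 0.10 for TTP-AA against GFP and 0.17 for TTP-AA against TTP, sizes exceeded by 70.8%, 66.4% and 54.6% of the 13028 genes. Nlrp3 thus lay among the more typical genes in all 3 comparisons, and the part of the motif in its values was not tested.

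Aim2 (ENSMUSG00000037860, chromosome 1, 173350879 to 173466040, protein coding) encodes the sensor of cytosolic double-stranded DNA. Its scaled fitted counts ran from 2318 to 2770 in GFP, from 2401 to 2873 in TTP and from 2459 to 2938 in TTP-AA, ranges that overlapped. The log2 differences were 0.05, 0.08 and 0.04 for TTP against GFP, TTP-AA against GFP and TTP-AA against TTP. The last was exceeded in size by 89.6% of genes.

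Pycard (ENSMUSG00000030793, chromosome 7, 127989708 to 127993867, minus strand, protein coding) encodes ASC, the adaptor that joins NLRP3 or AIM2 to caspase-1. Its scaled fitted counts were 5806, 6538 and 5788 in GFP, 3351, 3746 and 3346 in TTP, and 7518, 8435 and 7495 in TTP-AA. The 3 groups of fitted values did not overlap, TTP lying lowest and TTP-AA highest, which is no agreement between replicates. Pycard was lower in TTP, at 0.576 times its GFP level (log2 difference -0.80), and stood in TTP-AA at 2.25 times its TTP level (1.17). For TTP-AA against GFP it was higher by a factor of 1.29 (0.37). Only 2.12% of all genes differed by more for TTP against GFP and 2.33% for TTP-AA against TTP, against 16.1% for TTP-AA against GFP. An unconfirmed gene on the other strand, Gm45205, overlaps a Pycard exon in the annotation used here, and the use of strand in the counting is not given in the sources used here.

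Caspase-1 and caspase-4 are the inflammatory caspases. Casp1 (ENSMUSG00000025888, chromosome 9, 5298517 to 5307265, plus strand) and Casp4 (ENSMUSG00000033538, 5308828 to 5336783, plus strand) are both protein coding and lie 1562 bases apart. Casp4 had scaled fitted counts of 458, 506 and 806 in GFP, 433, 475 and 764 in TTP, and 755, 831 and 1329 in TTP-AA. Replicate 3 was the highest library in each group, and the highest GFP and TTP libraries exceeded the lowest TTP-AA library, so the groups overlapped. Casp4 was higher in TTP-AA than in GFP by a factor of 1.65 (log2 difference 0.72) and than in TTP by a factor of 1.74 (0.80), sizes exceeded by 3.75% and 5.26% of genes. For TTP against GFP the log2 difference was -0.08. With group means that did not weigh replicate numbers equally, leaving out TTP-AA replicate 3 gave 0.47 and 0.55 and leaving out GFP replicate 1 gave 0.56 for TTP-AA against GFP.

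Casp1 had scaled fitted counts of 2729, 2658 and 2854 in GFP, 2573, 2487 and 2694 in TTP, and 3748, 3636 and 3919 in TTP-AA. Among these fitted values those of TTP-AA lay above all others, while GFP and TTP overlapped. The log2 difference was 0.46 for TTP-AA against GFP (1.37-fold) and 0.54 for TTP-AA against TTP (1.46-fold), just inside the 1.5-fold limit in the latter. For TTP against GFP it was -0.09. Sizes were exceeded by 10.5%, 11.4% and 63.7% of genes, in that order.

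**Figure D1:**
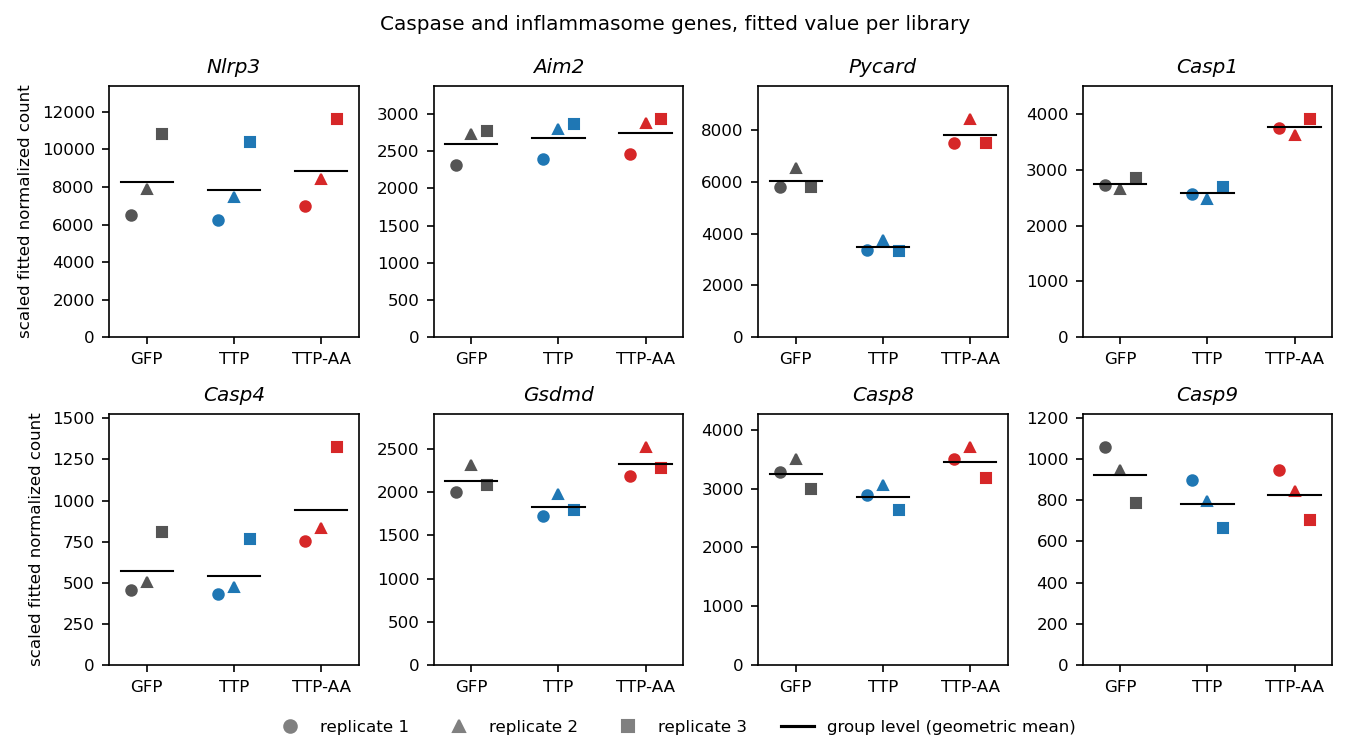
Scaled fitted counts of the 8 genes by group (GFP, TTP, TTP-AA), 1 symbol per library with its shape giving the replicate number and a line at the group level (geometric mean of 3 libraries); each panel has its own linear axis from 0. The panel of Pycard has the 3 groups apart, from 3346 to 3746 in TTP, 5788 to 6538 in GFP and 7495 to 8435 in TTP-AA, and the symbols of a gene keep the same relative order in each group because the values are fitted.

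Gsdmd (ENSMUSG00000022575, chromosome 15, 75862327 to 75867408, protein coding) encodes gasdermin D, the pore-forming substrate of both inflammatory caspases. Its scaled fitted counts ran from 1999 to 2321 in GFP, from 1721 to 1984 in TTP and from 2188 to 2531 in TTP-AA. TTP lay below both other groups, whose ranges overlapped. The log2 difference was -0.22 for TTP against GFP, 0.13 for TTP-AA against GFP and 0.35 for TTP-AA against TTP, and 25.2% of genes differed by more in the last.

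Casp8 (ENSMUSG00000026029, chromosome 1, 58795374 to 58847503, protein coding), the initiator caspase of death receptors, had scaled fitted counts from 2993 to 3503 in GFP, from 2639 to 3062 in TTP and from 3185 to 3715 in TTP-AA. The range of GFP overlapped both others, and those of TTP and TTP-AA did not meet. The log2 differences were -0.19, 0.09 and 0.27 for TTP against GFP, TTP-AA against GFP and TTP-AA against TTP.

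Casp9 (ENSMUSG00000028914, chromosome 4, 141793612 to 141815976, protein coding), the initiator caspase of the mitochondrial route, was the only member below GFP in both TTP forms. It ran from 786.3 to 1061 in GFP, from 665.6 to 896.8 in TTP and from 702.3 to 947.8 in TTP-AA, with overlap of all 3 groups. Its log2 differences were -0.25, -0.16 and 0.08. Exons of Cela2a and Ctrc on the other strand overlap Casp9, and their own means were 0.11 and 43.24.

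The levels of different genes were compared per kilobase of merged exons. In GFP the order was Nlrp3 (2031 scaled fitted counts per kb), Casp1 (1834), Pycard (1588), Casp8 (1125), Gsdmd (896.9), Aim2 (741.9), Casp9 (178.0) and Casp4 (154.0). In TTP, Pycard stood at 914.7 per kb, below Casp8 at 988.6. In TTP-AA, Casp1 was the highest of the 8 at 2516 per kb, above Nlrp3 at 2176 and Pycard at 2054, and Casp4 (253.6) stood above Casp9 (158.8). The value of Pycard rests on an annotated exon length of 3800 bases, most of which is 3′UTR. That of Casp4 rests on 3710 bases merged over its transcripts. Its transcript with the longest coding sequence has 1122 coding bases and a 3′UTR of 254. Without an error on these levels no neighbours in the order can be told apart.

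Read as a group, 1 of the 8 members (Pycard) was at least 1.5-fold lower for TTP against GFP, where 2.88% of the 13028 genes were lower and 3.90% differed in either direction by that much. For TTP-AA against GFP, 1 of 8 (Casp4) was at least 1.5-fold higher, beside 4.25% of genes higher and 6.25% in either direction. For TTP-AA against TTP, 2 of 8 (Pycard and Casp4) were higher, beside 6.82% of genes higher and 9.82% in either direction. Among the 8104 genes with a mean of at least 500, the shares in either direction were 1.53%, 2.85% and 4.76%. With 8 members, 1 gene more or less moves their share by more than these percentages, so nothing particular to the group is read from the counts.

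All 8 members had a higher fitted level in TTP-AA than in TTP, from 0.04 for Aim2 to 1.17 for Pycard, with a median log2 difference of 0.31 where the median of all genes was 0.000 and 50.0% were higher. For TTP against GFP 7 of 8 were lower (median -0.14), with Aim2 the exception, where the median of all genes was -0.002 and 49.6% were higher. For TTP-AA against GFP 7 of 8 were higher (median 0.11), with Casp9 the exception, beside a median of 0.002 and 50.5% of all genes. Leaving out some libraries changed the sign of Casp9, Nlrp3 and Aim2 for TTP-AA against TTP. It did so for Casp4, Nlrp3 and Aim2 for TTP against GFP, and for Nlrp3 for TTP-AA against GFP. The means then weighed replicate numbers unequally, so these changes of sign show the replicate-number term and do not test the differences. The counts of signs include small differences, such as 0.04 for Aim2 in TTP-AA against TTP. The comparisons share libraries, and the 3 differences of a gene are not independent of each other.

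**Figure D2:**
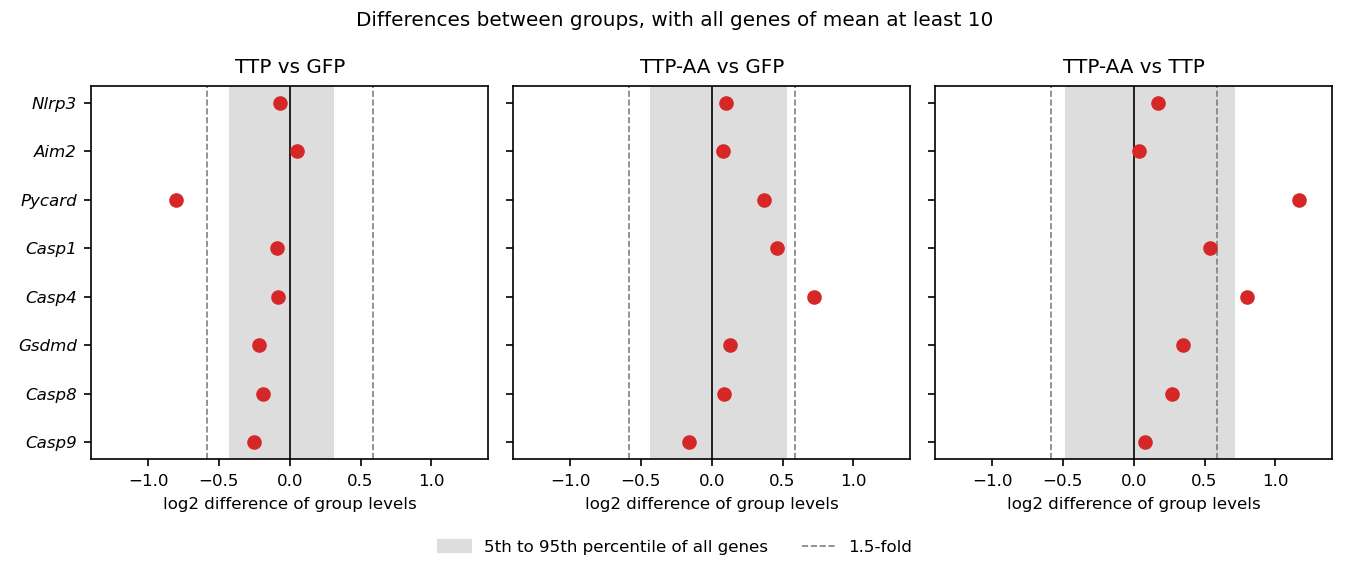
Log2 difference of group levels for each of the 8 genes (points) in the 3 comparisons, over a grey band from the 5th to the 95th percentile of the 13028 genes kept, with dashed lines at 1.5-fold. Pycard lies outside the band at -0.80 for TTP against GFP and 1.17 for TTP-AA against TTP, Casp4 lies outside it at 0.72 and 0.80 for TTP-AA against GFP and TTP, and Nlrp3 and Aim2 lie near 0.

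For several members the levels differed as much between replicate numbers as between groups. The log2 range over replicate numbers was 0.82 for Casp4 and 0.73 for Nlrp3, against 0.80 and 0.17 over groups, and replicate 3 stood above replicate 1 by a factor of 1.76 and 1.66. For Casp9 it was 0.43 against 0.25, and for Aim2 0.26 against 0.08. Pycard, Casp1, Gsdmd and Casp8 had the larger range over groups, with 1.17, 0.54, 0.35 and 0.27 against 0.17, 0.11, 0.21 and 0.22. A larger range over groups was thus seen in 4 of 8 members and in 39.9% of all genes.

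**Figure D3:**
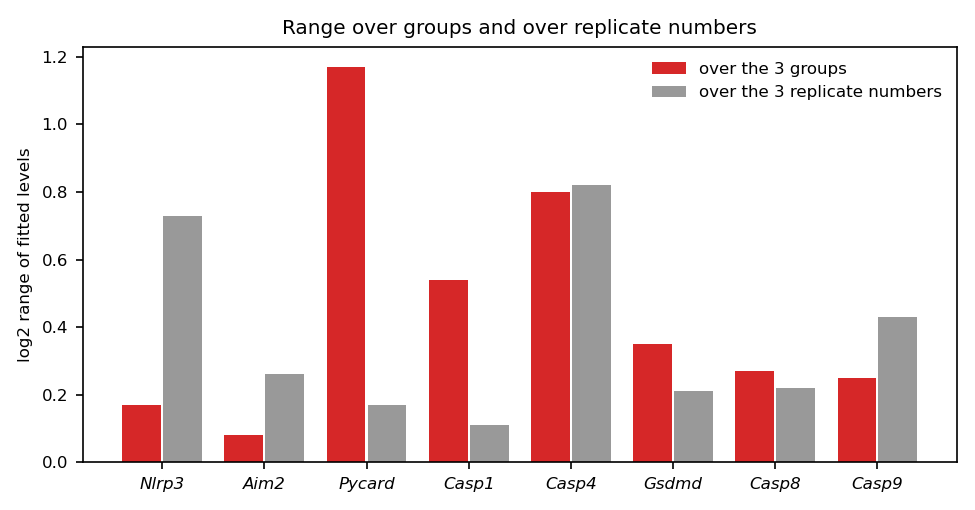
Range of fitted levels (highest minus lowest, log2 scale) over the 3 groups and over the 3 replicate numbers for each of the 8 genes. Pycard has 1.17 over groups and 0.17 over replicate numbers, while Nlrp3 has 0.17 over groups and 0.73 over replicate numbers.

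Genes that act with these members were read as 5 lists of other caspases, other inflammasome sensors and regulators, substrates, caspase-8 partners, and the apoptosome with caspase inhibitors. Over all genes, 3.90%, 6.25% and 9.82% were past 1.5-fold for TTP against GFP, TTP-AA against GFP and TTP-AA against TTP. For TTP against GFP 49.6% were higher. With 4 to 10 genes kept per list, nothing particular to a list is read from its counts. None of the 4 other caspases that passed the limit on low values differed by 1.5-fold in any comparison, with values from -0.29 (Casp6, TTP-AA against GFP) to 0.31 (Casp2, TTP-AA against TTP). Casp12 had a mean of 0.127. Of 10 other sensors and regulators kept, 9 had a lower level in TTP than in GFP (median -0.28) but none by 1.5-fold, Nlrc4, the sensor partner of the NAIP proteins, having the largest size at -0.55. Naip1, a receptor for bacterial needle protein, was higher in TTP-AA by 0.84 than in GFP and by 0.82 than in TTP at a mean of 59.6, and Txnip, which binds thioredoxin, had -0.61 for TTP-AA against GFP. The Naip genes are close copies of each other, and reads placed more than once make their values uncertain. Nlrp6, Nlrp12 and Mefv had means under 10.

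Il1b and Il18, which encode the cytokines that caspase-1 matures, stayed inside 1.5-fold in the 3 comparisons. Il1b, the mRNA of interleukin-1β, had log2 differences of 0.08, -0.05 and -0.14 for TTP against GFP, TTP-AA against GFP and TTP-AA against TTP, and Il18 had -0.08, 0.13 and 0.20. Dfna5, the deposited name for gasdermin E, encodes the pore protein cut by caspase-3. For TTP against GFP and for TTP-AA against TTP it differed more than any of the 8 members. Its scaled fitted counts were 1144, 1122 and 988.6 in GFP, 403.9, 393.5 and 349.6 in TTP and 1213, 1186 and 1048 in TTP-AA. Its log2 difference was -1.50 for TTP against GFP, 0.08 for TTP-AA against GFP and 1.59 for TTP-AA against TTP. Of the 5 genes of this list no other was past 1.5-fold, Ninj1, which ruptures the membrane after pore formation, reaching 0.48 for TTP-AA against TTP.

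Among the partners of caspase-8, Ripk3, the kinase that drives necroptosis when caspase-8 is inactive, had the same order of groups as Pycard with larger steps. Its scaled fitted counts were 299.6, 274.6 and 235.0 in GFP, 95.51, 86.93 and 75.05 in TTP and 519.9, 474.9 and 407.9 in TTP-AA. The log2 differences were -1.65, 0.79 and 2.45. Tnfrsf1a, the TNF receptor upstream of caspase-8, was higher by 0.64 for TTP-AA against TTP, so 1 of the 7 genes kept was past 1.5-fold for each comparison with GFP and 2 for TTP-AA against TTP. Mlkl, the executioner of necroptosis, had -0.08, -0.14 and -0.06, and Ripk1, Fadd, Tradd and Cflar stayed inside 1.5-fold.

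Of the 9 apoptosome genes and caspase inhibitors, none was past 1.5-fold for TTP against GFP, 1 (Naip1) for TTP-AA against GFP and 2 (Naip1 and Birc3) for TTP-AA against TTP. Birc3, which encodes the ubiquitin ligase cIAP2, was higher by 0.66 in the last. Apaf1, the scaffold that activates caspase-9, had -0.20, 0.21 and 0.41. Cycs, Diablo, Htra2, Xiap, Birc2 and Birc5 had differences between -0.32 and 0.27 in the 3 comparisons.

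**Figure D4:**
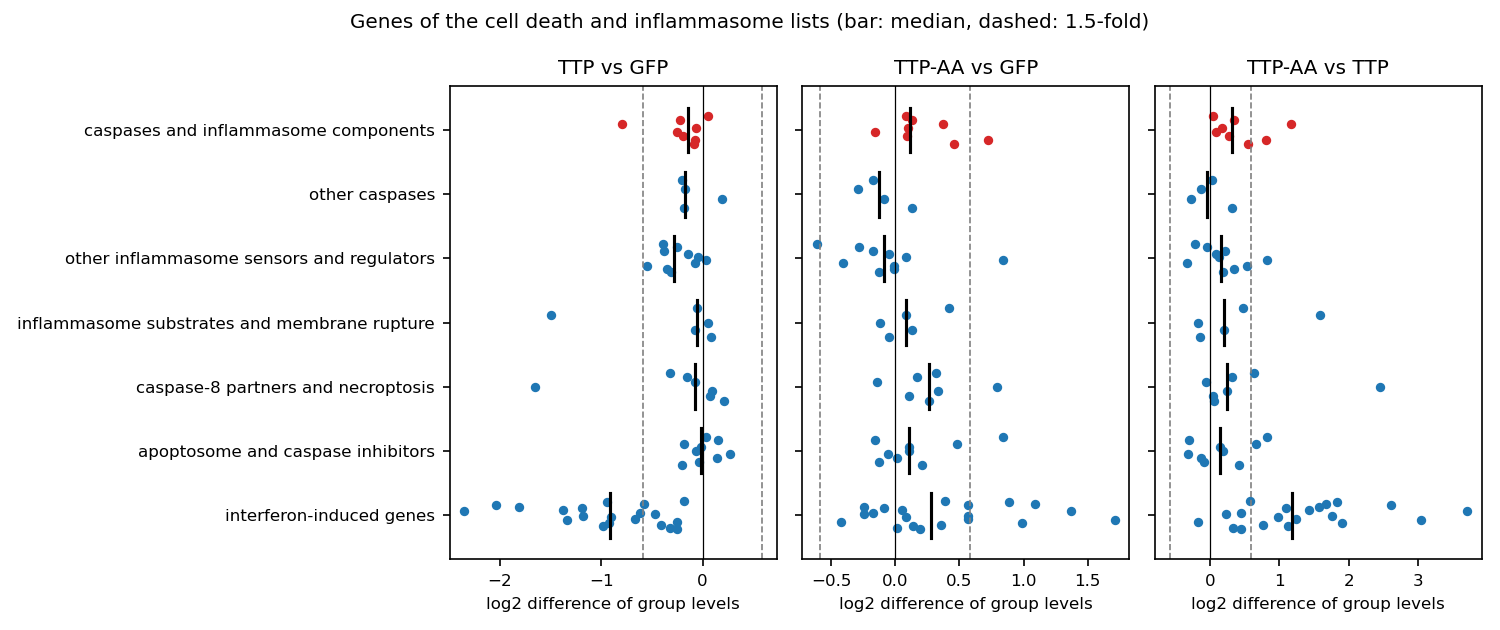
Log2 differences of single genes (points) with the list median (bar) for the 8 members in red and for 6 other lists in blue, in the 3 comparisons, with dashed lines at 1.5-fold and a separate axis per panel. Most genes of the cell death lists lie inside 1.5-fold, Ripk3 and Dfna5 are the lone points at -1.65 and -1.50 for TTP against GFP, and the interferon-induced genes have medians of -0.91, 0.28 and 1.18.

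Interferon-induced genes had the same order of groups as Pycard. For TTP against GFP all 20 of those kept had a negative difference (median -0.91, 13 of them past 1.5-fold), and for TTP-AA against TTP 19 of 20 had a positive one (median 1.18, 14 past 1.5-fold). For TTP-AA against GFP the median was 0.28, with 5 past 1.5-fold. Over all genes, 3.90%, 6.25% and 9.82% were past 1.5-fold for TTP against GFP, TTP-AA against GFP and TTP-AA against TTP. In the same order, 49.6%, 50.5% and 50.0% were higher. Ifih1, Oasl1 and Cmpk2 had the largest sizes, at 3.71, 3.05 and 2.61 for TTP-AA against TTP. Casp4 had -0.08 and Aim2 0.05 for TTP against GFP, each outside the range of that list, which ran from -2.35 to -0.18. In the other comparisons both lay inside it, Casp4 at 0.72 and Aim2 at 0.08 in a range from -0.42 to 1.71 for TTP-AA against GFP, and at 0.80 and 0.04 in one from -0.17 to 3.71 for TTP-AA against TTP. The part of this difference between the lines in the values of Pycard, Dfna5 and Ripk3 was not tested.

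Some macrophage markers differed with the groups as well. Emr1, which encodes F4/80, had log2 differences of -0.76, 0.68 and 1.44, and Fcgr1 had -1.21, -0.39 and 0.83. Itgam (0.06, 0.20 and 0.15), Csf1r (-0.04, 0.23 and 0.27) and Cd68 (-0.07, 0.03 and 0.10) differed little. The summed level of the 8 markers, mostly Lyz2, ran from 577690 to 798398 in GFP, from 481522 to 657486 in TTP and from 662605 to 909972 in TTP-AA, and its part in the values of Pycard was not tested. Of the neutrophil markers in the table, S100a8 was higher in TTP-AA by 0.77 than in GFP and by 0.75 than in TTP, like Casp4 and Casp1, and Mpo had a mean of 0.493. Their summed level ran from 113 to 181 in GFP, from 114 to 183 in TTP and from 192 to 308 in TTP-AA, and its part in the values of Casp4 and Casp1 was not tested. Among the T cell markers, Lck had log2 differences of 0.65, 0.52 and -0.13, and Cd3d and Cd8a had means of 5.23 and 0.65. Their summed level ran from 60.8 to 67.8 in GFP, from 91.5 to 103 in TTP and from 85.2 to 95.3 in TTP-AA, and its part in the values of the 8 members was not tested.

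The genes whose 2 log2 differences against GFP lay closest to those of Pycard, by Euclidean distance among 11119 other genes with a mean of at least 50, were Sorl1 (distance 0.043), Ccrl2 (0.083), AF251705 (0.086), Ctss (0.089) and Ociad2 (0.092). All 5 were lower in TTP than in GFP, from -0.83 to -0.72, and higher in TTP-AA than in TTP, from 1.04 to 1.26. Sorl1 had a mean of 94.0, and the others from 807 to 14796. This likeness rests on 2 numbers per gene.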

How the data were processed

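Total RNA depleted of ribosomal RNA was sequenced in 9 libraries, 3 per group, with the group and replicate number of each read from its title. Per the labels, the authors named GRCm38, TopHat2 2.0.12, HTSeq and DESeq2 1.6.3 in their processing notes, and the study's methods give library date and condition as the terms of the model. The deposited library signal, named normalized counts, was checked by its rank and found to hold fitted means that still carry library size. From the 3 comparison tables, the authors' mean signal per gene and the list of genes alone were used. Their fold changes, standard errors, Wald statistics and p-values are the study's own results and were not used.

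Of 25504 rows, 10 repeated gene identifiers and were counted once. Each library was divided by its median ratio to the geometric mean, taken on genes whose mean reached 10. After this, gene means deviated from the authors' mean by a median of 0.132%, apart from a constant. The design allowed for a limma fit if values were measured. Since they were fitted, there was no test, and the log2 difference of group levels (means of log2 values, pseudocount 0) was read against a fold limit of 1.5. The library totals stand in for depth and, with no counts, give no precision. The steps were tested on simulated fitted values without noise, with known library factors and differences, which checks the arithmetic alone. Python 3.11.15, numpy 2.4.6, pandas 2.3.3 and matplotlib 3.10.9 were used. Alternatives were other scalings, filters, fold limits, a pseudocount of 1, arithmetic means, a replicate block and leaving out each library.

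GENCODE M21 (GRCm38) gave positions, exon lengths and 3′UTRs. It is a later annotation than that of the authors. Promoters came from RefSeq (GRCm38.p6). Not every motif match is reported here. The genes named were the 8 members, Zfp36, for each list up to 3 genes past the fold limit with a mean of at least 50 and the largest differences, and the 5 genes most like the member with the widest range. Genes inside the fold limit were named to show the range of a list, after their values were seen. The members and lists were chosen with earlier results of these data known.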

Additional observations from a re-analysis of the deposited data

How the results depend on the processing

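Under 8 alternatives (library totals, upper quartile, ratios on genes whose mean reached 100, no filter, a filter at 50, a pseudocount of 1, arithmetic means and a replicate block) all 192 differences of single members stayed within the spread over replicate numbers, moving by at most 0.03 on the log2 scale. The members past the limit stayed at 1, 1 and 2 for TTP against GFP, TTP-AA against GFP and TTP-AA against TTP. With the replicate block, which took the difference within each replicate number, the medians were -0.14, 0.11 and 0.31, equal to those without it by the construction of fitted means, so the pairing could not be tested. The counts depend on the limit, with 3 members for TTP-AA against GFP and 4 for TTP-AA against TTP when a gene had to exceed the lower group by 25%, and 0, 0 and 1 for the 3 comparisons at 2-fold, where 1.37%, 1.47% and 3.28% of all genes passed (20.6% and 28.1% at the lower limit for the former pair). Leaving out each of the 9 libraries gave 1 member for TTP against GFP, 0 to 1 for TTP-AA against GFP and 1 to 2 for TTP-AA against TTP. The count for TTP-AA against GFP was 0 without GFP replicate 1 or TTP-AA replicate 3 and that for TTP-AA against TTP was 1 without TTP-AA replicate 3, since Casp4 differs between replicate numbers and the means were then unequally weighed. The signs of the smaller differences of Casp4, Nlrp3 and Aim2 (TTP against GFP), of Nlrp3 (TTP-AA against GFP) and of Casp9, Nlrp3 and Aim2 (TTP-AA against TTP) also changed when some libraries were left out. These changes, too, come from the unequal weights and do not test the differences. The medians ran from -0.21 to -0.13, from 0.09 to 0.22 and from 0.26 to 0.36. They were farthest from the main value without GFP replicate 1 for TTP against GFP (-0.21) and without GFP replicate 3 (0.21) or TTP-AA replicate 1 (0.22) for TTP-AA against GFP. Library factors from a regression on the authors' mean are not given, since the 9 fitted columns were close to collinear (condition number 148).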
